A study of Mus musculus with 25 samples.

Results

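The 10 genes described here set the threshold at which a cell enters apoptosis. They are the protective Bcl2 relatives Bcl2, Bcl2l1 (Bcl-xL) and Mcl1, the killer relatives Bcl2l11 (Bim), Bid and Bak1, the inhibitor of apoptosis genes Birc2 (cIAP1), Birc3 (cIAP2) and Xiap, and Cflar (c-FLIP). They were chosen by symbol, and every probe set that carries such a symbol and no other was taken. This gave 40 of the 45037 probe sets tested, for 10 of the 18193 genes on the array.

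The cells were RAW 264.7, an established mouse macrophage line, grown in DMEM with fetal bovine serum, HEPES, penicillin and streptomycin, the same in all groups, to near confluence. They received hypochlorous acid (HOCl), the oxidant produced by myeloperoxidase of activated neutrophils, in the culture medium for 6 h. There were 8 groups, with no HOCl (0 mM), at lower doses of 0.14, 0.35 and 0.7 mM and at higher doses of 1.4, 2.1, 2.8 and 3.5 mM, with 4 arrays at 0 mM and 3 at each other dose, and the groups differed only in the dose as far as the labels say. Each RNA was hybridised to 1 Affymetrix mouse genome array, and the labels call the replicates biological, so p-values measure the spread between these arrays. One cell line stands for macrophages here, and the sources used do not give cell survival at these doses.

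In the mitochondrial pathway, BH3-only proteins such as Bim and Bid engage the protective relatives or activate the effectors Bax and Bak, which then open the outer mitochondrial membrane and release cytochrome c. Mcl-1 protein is short-lived, so its level follows its synthesis closely. In the death receptor pathway, c-FLIP resembles caspase-8 without its activity and keeps it from firing. cIAP1 and cIAP2 ubiquitinate components of the TNF receptor complex, and XIAP binds and inhibits active caspases. Bcl2, Birc3 and Cflar are known NF-kB targets in several cell types, and Bim is a known target of FoxO factors.

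The values are log2 signals per probe set with an array median of 0, so a difference of 1 is a 2-fold difference if the base is 2, as the span of the values implies, and RNA lost from all genes alike would not show. Signals of different probe sets are on scales of their own, and no level is compared between genes. The cells carried the markers of their label: 10 of 10 macrophage markers lay above the 75th percentile of probe sets, and their mean level was between 5.71 and 6.17 on every array. Single markers changed with the dose, and the F test defined below called 4 of the 10, against 28% of all genes. At 0.35 against 0 mM, for example, Adgre1, 1 of these 4, fell by 1.29 ± 0.30 (limma adjusted p 0.018). Cd14, which the F test did not call (limma adjusted p 0.084), rose by 0.66 ± 0.19 in that comparison (limma adjusted p 0.045). Of the 23 measured markers of T cells, B cells, neutrophils, fibroblasts, epithelium and endothelium, 0 lay above that percentile. A technical measure divided the arrays as well, since the mean of 8 5'-end control probe sets, which detect spiked-in Bacillus RNA, stood at 0.62 to 1.12 on 11 arrays (every array of the 2 lowest groups, and the first 2 replicates at 0.35 as well as 0.7 mM) and at 1.75 to 2.39 on the other 14. Replicate 1 of 0 mM stood apart by its Gapdh 3'-minus-5' difference of 0.36, against at most -0.01 on every other array, and arrays of 0 mM correlated at r of 0.95 to 1.00 with each other.

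Proximal promoters from RefSeq (build GRCm38.p6), the 250 bases before the most upstream listed start, were found for 10 of 10 genes. The 4 shown belong to the gene with the largest fall between neighbouring doses by its brightest probe set (Cflar), to the BH3-only gene whose probe sets fell with it (Bcl2l11), and to the neighbours Birc2 and Birc3, which have 0 protein-coding genes between them. Capitals mark a motif match.
Cflar promoter, chr1:58711241-58711490, plus strand: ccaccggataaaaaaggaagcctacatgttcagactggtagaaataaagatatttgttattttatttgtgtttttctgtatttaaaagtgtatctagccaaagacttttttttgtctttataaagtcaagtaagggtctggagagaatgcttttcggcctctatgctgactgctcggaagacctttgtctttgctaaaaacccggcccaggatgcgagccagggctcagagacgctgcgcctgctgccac
Bcl2l11 promoter, chr2:128125788-128126037, plus strand: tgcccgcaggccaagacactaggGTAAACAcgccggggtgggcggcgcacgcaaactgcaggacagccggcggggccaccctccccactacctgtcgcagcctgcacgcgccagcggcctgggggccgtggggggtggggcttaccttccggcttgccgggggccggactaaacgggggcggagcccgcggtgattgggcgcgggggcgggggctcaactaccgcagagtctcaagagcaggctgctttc
Birc2 promoter, chr9:7837058-7837307, minus strand: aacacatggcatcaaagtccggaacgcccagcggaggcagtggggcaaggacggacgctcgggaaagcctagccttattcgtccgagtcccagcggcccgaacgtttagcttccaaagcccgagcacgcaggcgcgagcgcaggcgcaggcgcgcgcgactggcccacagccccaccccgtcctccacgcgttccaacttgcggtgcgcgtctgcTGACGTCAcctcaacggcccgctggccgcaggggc
Birc3 promoter, chr9:7873171-7873420, minus strand: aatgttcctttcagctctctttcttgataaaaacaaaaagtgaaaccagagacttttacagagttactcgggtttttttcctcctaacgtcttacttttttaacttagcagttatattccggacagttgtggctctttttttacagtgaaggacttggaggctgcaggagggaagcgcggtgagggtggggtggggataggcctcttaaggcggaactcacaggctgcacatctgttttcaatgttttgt
Windows were searched on both strands for GTAAACA (FoxO), TGACGTCA (CRE), TGANTCA (AP-1), TGACNNNGC (the core of the antioxidant response element) and the kappaB motif. The FoxO letters lay in the Bcl2l11 window, 227 to 221 bases before the start, and in 3.06% of the windows of 27026 genes. The CRE, which reads the same on both strands, lay 35 to 28 bases before the start of Birc2, and in 1.6% of all windows. None of the 10 windows held the AP-1 letters (6.85% of all windows), the antioxidant response core (10.1%) or the kappaB motif (3.74%). The G+C content was 42.8% for Cflar and 43.6% for Birc3, against 72% for Bcl2l11, 74.8% for Bcl2 and a median of 52% over all windows. A match describes letters only and shows no binding.

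Levels of these genes differed over the doses in several ways. Cflar and 4 of the 5 Bcl2l11 probe sets fell between 2.8 and 3.5 mM. Bcl2 fell against 0 mM at 1.4 to 2.8 mM by its brightest probe set. Against 0 mM, 4 of 7 Xiap probe sets rose at 2.1 mM and 4 of 6 Mcl1 probe sets fell at 0.35 mM. Birc3 was lowest at 2.8 mM by the brighter of its 2 probe sets. An F test over the 7 doses against 0 mM (limma, Benjamini-Hochberg adjusted p under 0.05, "called" below) called 16 of the 40 probe sets, against 24.7% of all probe sets. By the brightest probe set of each gene, which represents it below, it called 5 of 10 genes (Bcl2, Mcl1, Birc3, Xiap and Cflar), against 28% of all genes. The Mcl1 call (limma adjusted p 0.042) was lost without any of 16 arrays and in 3 alternative settings. By role, the called probe sets were 4 of 15 of the protective relatives, 3 of 10 of the killer relatives, 6 of 10 of the inhibitor of apoptosis genes and 3 of 5 of Cflar. The 3 of the killer relatives were all of Bcl2l11. Those of the inhibitor genes were 5 of Xiap, 1 of Birc3 and 0 of Birc2. Probe sets of 1 gene are not separate observations. In bulk RNA, a smaller share of cells with a transcript and less transcript per cell cannot be told apart.

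**Figure D1:**
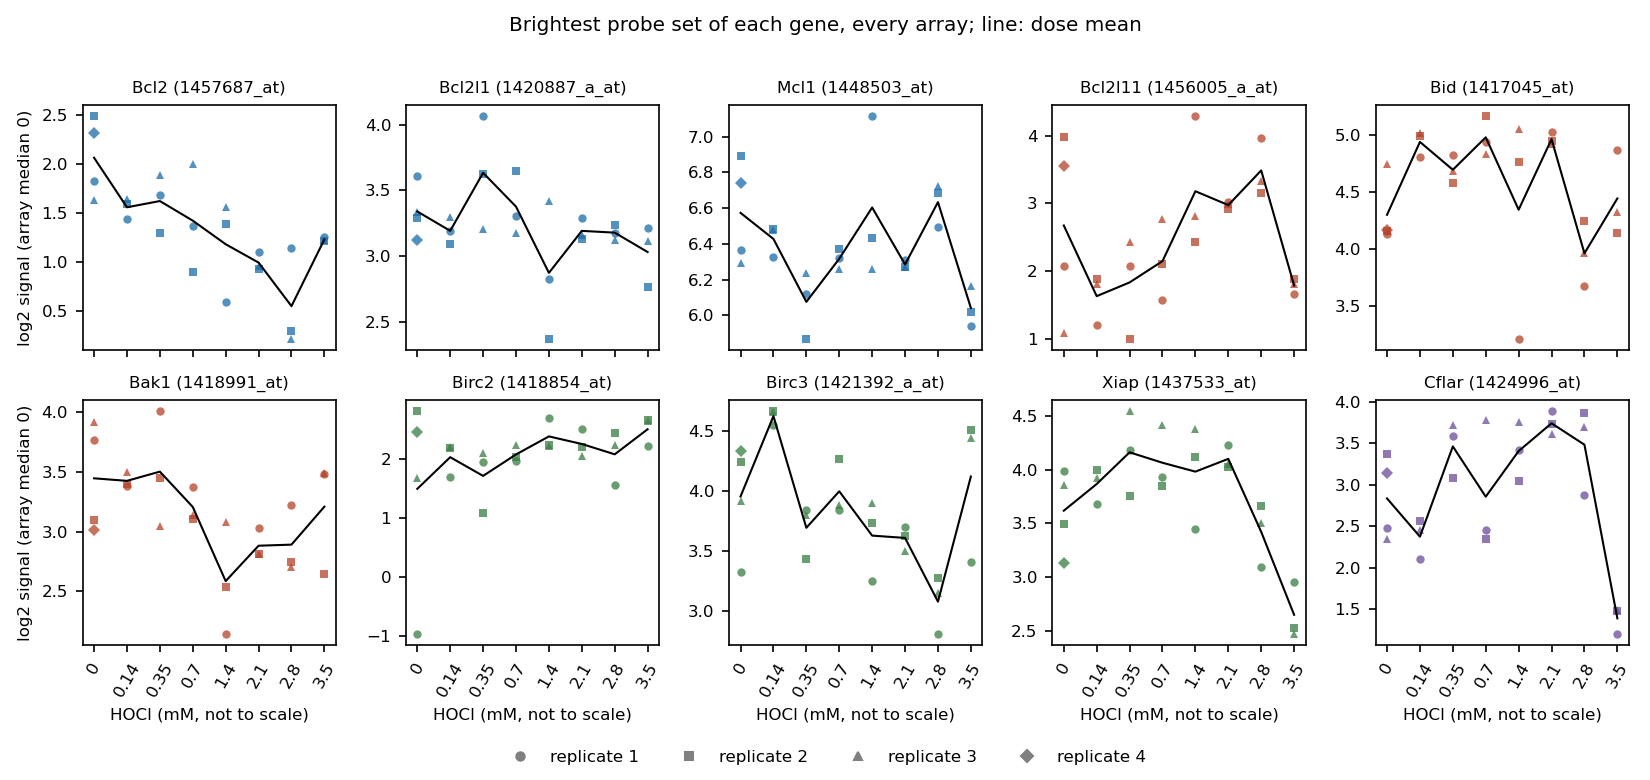
Log2 signal (array median 0) of the brightest probe set of each of the 10 genes on all 25 arrays against HOCl dose, with marker shapes for replicate numbers and a line through the dose means. Blue marks protective Bcl2 relatives, red the killer relatives, green inhibitor of apoptosis genes and purple Cflar; the Cflar arrays at 3.5 mM, at 1.20 to 1.49, lie below all others.

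Counts of called probe sets changed with the dose. At 0.14 against 0 mM limma called 0 of 40 (5 at an unadjusted p under 0.05), against 0.00444% of all probe sets, and at 0.7 against 0 mM 0 of 40 (6 unadjusted), against 0.133%. At 0.35 mM 5 were called (1 higher, 4 lower), against 6.43% of all probe sets (1.71% higher, 4.72% lower). At 1.4 mM 4 were called (1 higher, 3 lower), against 7.81% (4.39% higher, 3.43% lower). At 2.1 mM 9 were called (6 higher, 3 lower), against 13.4% (7.26% higher, 6.09% lower). At 2.8 mM 5 were called (1 higher, 4 lower), against 11.9% (5.64% higher, 6.26% lower), and at 3.5 mM 6, all lower, against 9.32% (3.93% higher, 5.4% lower). The comparisons share the 0 mM arrays. Single arrays moved these counts: at 2.1 mM 4 were called without replicate 1 or 2 of that dose, at 2.8 mM 2 without its replicate 2 or 3, 8 without its replicate 1 and 9 without replicate 3 of 0.7 mM, and at 3.5 mM 2 without its replicate 1 and 3 without its replicate 2 or 3. At 1.4 mM 10 omissions, 1 array at a time, left 2 calls. The median change of the 10 genes at 3.5 mM was -0.42 on the log2 scale, against 0.10 over all genes. At 3.5 mM 32 of 40 probe sets had a lower mean than at 0 mM, and at 0.14 mM, with 0 called, 30 of 40 had. These are probe sets of only 10 genes and not 40 separate observations. Between neighbouring doses, limma called 10 of 40 from 2.8 to 3.5 mM (9 lower, 1 higher), against 11.2% of all probe sets (5.66% lower, 5.59% higher), and 0 of 40 at each other step from 0.14 mM up. The unadjusted counts at those other steps were 15 from 0.14 to 0.35 mM, 1 from 0.35 to 0.7 mM, 6 from 0.7 to 1.4 mM, 0 from 1.4 to 2.1 mM and 7 from 2.1 to 2.8 mM, and the percentages called over all probe sets were 3.37%, 0%, 0%, 0% and 0.0244%. Arrays of a dose lay entirely above or below those of 0 mM for 6 at 0.14 mM (9% of all probe sets), 11 at 0.35 mM (13.9%), 4 at 0.7 mM (8.08%), 8 at 1.4 mM (19.1%), 17 at 2.1 mM (28.1%), 7 at 2.8 mM (20.8%) and 8 at 3.5 mM (19.7%) of the 40 probe sets. Between neighbouring doses the same held for 18 from 0.14 to 0.35 mM (21.5%), 7 from 0.35 to 0.7 mM (9.85%), 2 from 0.7 to 1.4 mM (14.3%) and 0 from 1.4 to 2.1 mM (10.8%).

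**Figure D2:**
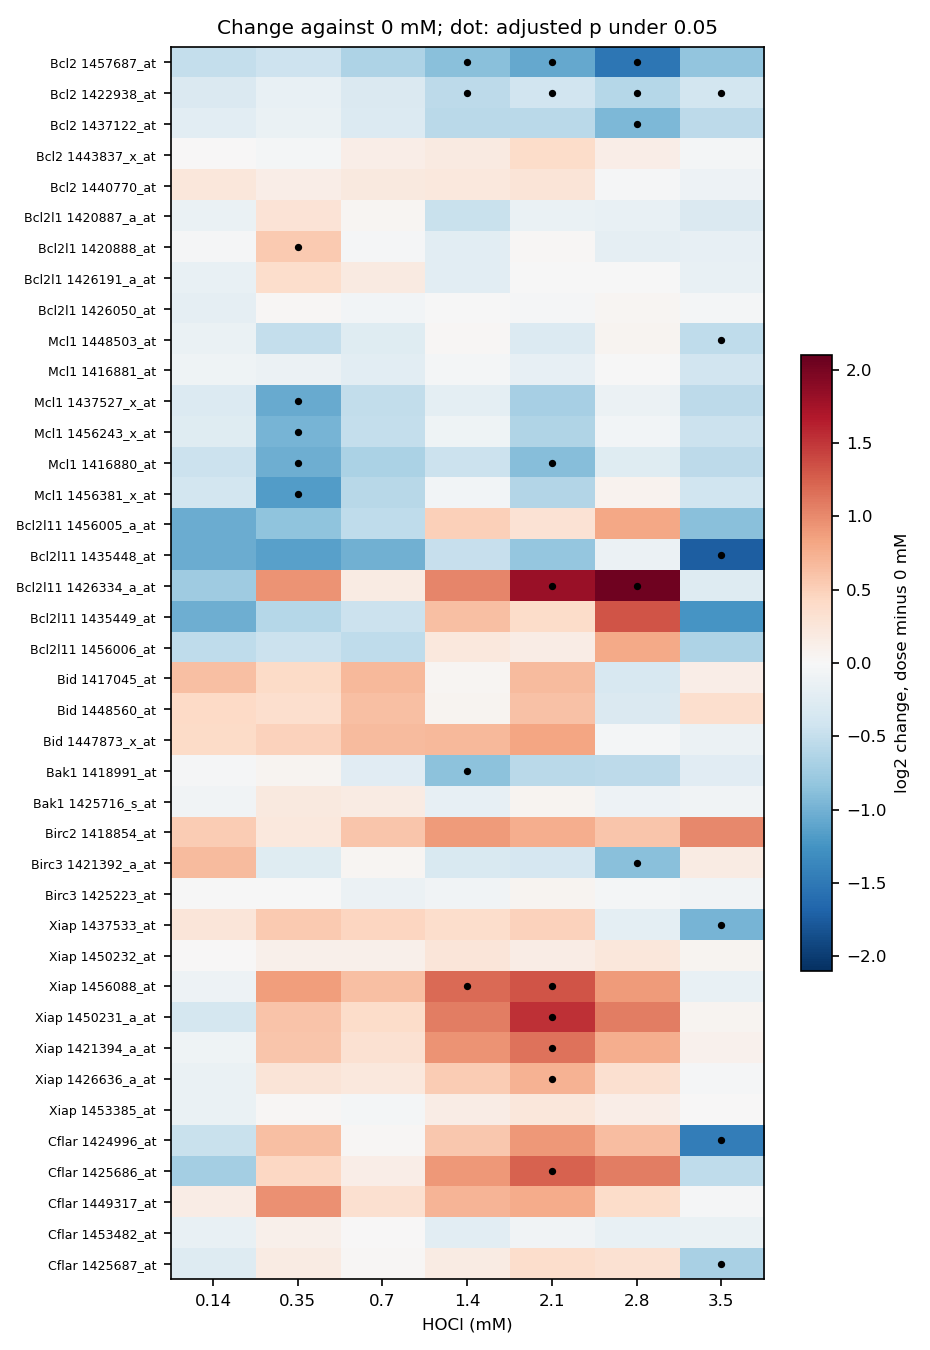
Log2 change of each dose mean against the 0 mM mean (colour, red higher and blue lower) for the 40 probe sets of the 10 genes, with a dot where the limma adjusted p was under 0.05. Dots for Bcl2 run from 1.4 to 3.5 mM, those for Xiap lie mostly at 2.1 mM, those for Mcl1 mostly at 0.35 mM, and all 6 at 3.5 mM are on lower values.

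Among the protective relatives, Bcl2, the founding member of the family, fell against 0 mM on 3 of its 5 probe sets at 1 or more of the doses from 1.4 mM up, without a steady order among those doses. Its brightest probe set (1457687_at) read 1.83, 2.49, 1.63 and 2.32 on the 4 arrays at 0 mM, 1.10, 0.93 and 0.96 at 2.1 mM, 1.14, 0.30 and 0.22 at 2.8 mM, and 1.25, 1.22 and 1.23 at 3.5 mM. Every array from 2.1 mM up lay below every array at 0 mM, and the lowest level was on replicates 2 and 3 of 2.8 mM. The log2 change at 2.8 mM was -1.51 ± 0.27 (SE, n = 3 against 4), a 2.86-fold lower mean, with a limma adjusted p of 0.0014. The fall was also called at 1.4 and 2.1 mM and not at 3.5 mM (limma adjusted p 0.055). The 1.4 mM call (limma adjusted p 0.047) was lost without any of 17 arrays and in 4 alternatives, and the 2.1 mM call without replicate 2 of 2.1 mM or once spike level was a term. A second probe set (1422938_at) varied less between arrays of a dose and stood at 1.47 ± 0.13 (SD, n = 4) at 0 mM, 0.92 ± 0.14 at 1.4 mM, 1.06 ± 0.07 at 2.1 mM, 0.86 ± 0.14 at 2.8 mM and 1.08 ± 0.14 at 3.5 mM (n = 3 each). Its arrays from 1.4 mM up lay below all 4 at 0 mM, and it was called at all 4 of those doses, at 3.5 mM only with replicate 1 of that dose kept (limma adjusted p 0.075 without it), and that call was lost with quantile normalization too. Probe set 1437122_at was called at 2.8 mM, with -0.95 ± 0.25, a call lost without any of replicates 2 and 4 of 0 mM and 2 and 3 of 2.8 mM, while 1443837_x_at and 1440770_at, both below the array median, were not called at any dose. All arrays from 1.4 mM up are at the high spike level and all at 0 mM at the low one, so dose and spike level can be separated only through replicate 3 of 0.35 and 0.7 mM. With spike level as a term, the change of 1457687_at at 2.8 mM was -2.14 and its limma adjusted p 0.026, whereas the limma adjusted p of 1422938_at was 0.081 at 2.8 mM and 0.15 to 0.38 at the other 3 doses.

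Mcl1, the short-lived relative, was lowest at 0.35 and 3.5 mM by its brightest probe set (1448503_at). That probe set read 6.37, 6.89, 6.29 and 6.74 at 0 mM, 6.12, 5.87 and 6.24 at 0.35 mM, 6.50, 6.68 and 6.72 at 2.8 mM, and 5.94, 6.02 and 6.16 at 3.5 mM. The arrays of 0.35 and of 3.5 mM lay below all at 0 mM by a small margin, and those of 2.8 mM lay within the 0 mM range. The change was -0.53 ± 0.16 at 3.5 against 0 mM (limma adjusted p 0.042) and -0.59 ± 0.17 from 2.8 to 3.5 mM (limma adjusted p 0.030). With each array scaled to a common spread, the first value became -0.05 (limma adjusted p 0.90), and the second -0.49 (limma adjusted p 0.079). The first call was lost without any of 13 arrays and the second without any of 5, which include all 3 at 3.5 mM in both cases. Each of the other Mcl1 probe sets overlapped between 2.8 and 3.5 mM. None of them was called at 3.5 mM against 0 or 2.8 mM.
At 0.35 mM the brightest probe set changed by -0.50 with a limma adjusted p of 0.069, and 4 of the 5 others fell by 0.97 to 1.17, to limma adjusted p of 0.027 to 0.036. Probe set 1416880_at, for example, read 4.77, 5.86, 4.78 and 5.62 at 0 mM against 4.45, 3.95 and 4.31 at 0.35 mM. Replicates 2 and 4 of 0 mM lay above replicates 1 and 3, and without either of them, or without replicate 2 of 0.35 mM, the count of 5 probe sets called at 0.35 mM fell to 0. Without replicate 1 of 0.35 mM the count was 1, and without replicate 3 of 0 mM it was 8. With each array scaled to a common spread these 4 changes were -0.69 to -0.93 and all 4 missed the threshold (limma adjusted p 0.058 to 0.11), as they did with the 2 doses fitted alone, and 1 of the 4 was called on the low spike arrays alone. Of the 4 Mcl1 probe sets called at 0.35 mM 3 carry the suffix _x, which marks probes that can also bind other transcripts. Probe set 1416880_at was also called lower at 2.1 against 0 mM. That call was lost in 4 of 9 alternatives and without any of 5 arrays.

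Bcl2l1, which encodes Bcl-xL, was not called by its brightest probe set. That probe set (1420887_a_at) had dose means between 2.87 and 3.63, a range of 0.76, and its limma adjusted p in the F test was 0.17. Replicate 1 of 0.35 mM was high, at 4.07, and replicate 2 of 1.4 mM was low, at 2.37, while the arrays of every dose overlapped those of 0 mM. A second probe set (1420888_at) was called at 0.35 mM, at 3.74 ± 0.33 (n = 3) against 3.19 ± 0.16 (n = 4), with a limma adjusted p of 0.042. That call was lost on leaving out any of 10 arrays, including all 3 at 0.14 mM and all 3 at 2.1 mM.

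**Figure D3:**
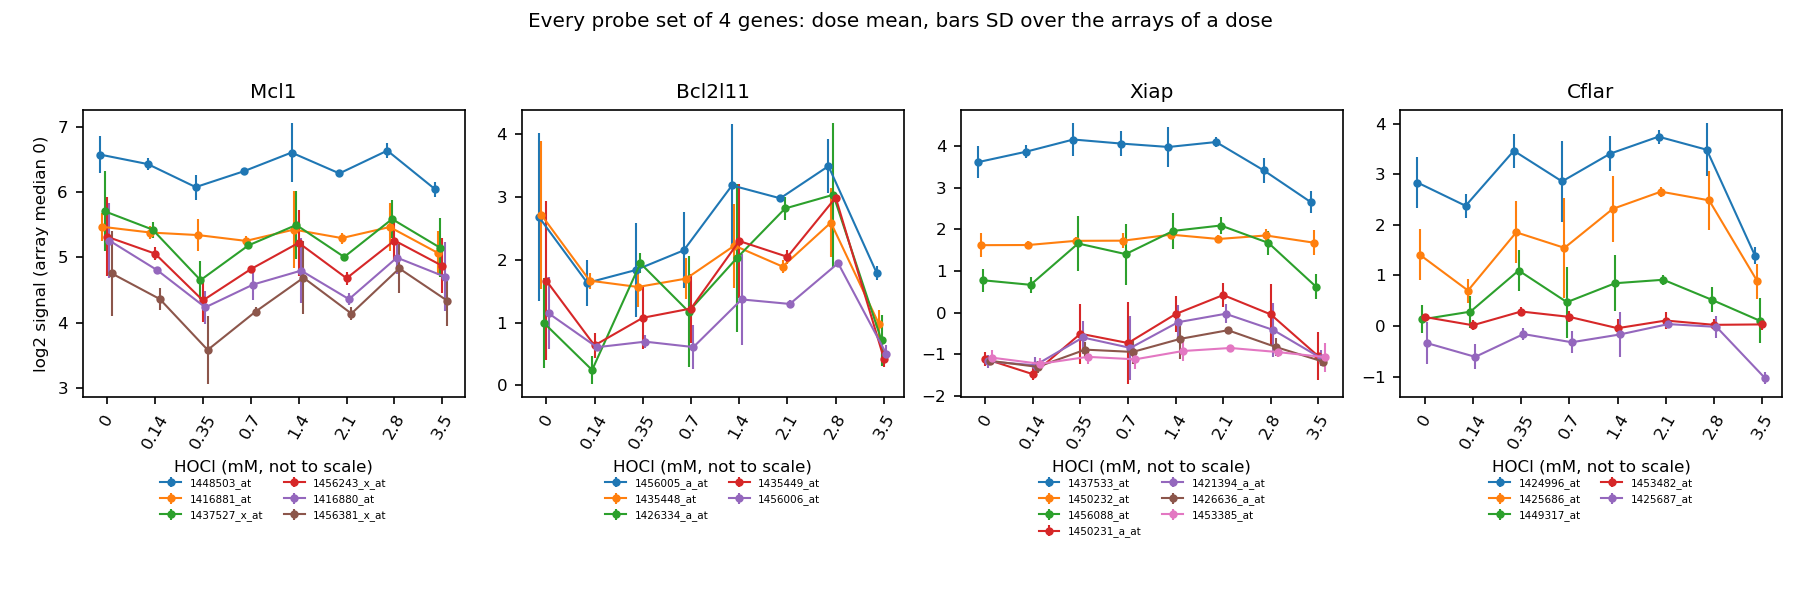
Dose means with SD over the arrays of a dose (n = 4 at 0 mM, 3 elsewhere) for every probe set of Mcl1, Bcl2l11, Xiap and Cflar, in log2 signal with array median 0. The 5 Bcl2l11 probe sets and 3 of the 5 Cflar probe sets fall together from 2.8 to 3.5 mM.

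Among the killer relatives, Bcl2l11, whose product Bim binds all protective relatives, was lower at 3.5 than at 2.8 mM on all 5 of its probe sets. Probe set 1435449_at read 2.94, 3.01 and 3.01 at 2.8 mM and 0.45, 0.28 and 0.55 at 3.5 mM. The 2 doses were far apart, and the change was -2.56 ± 0.51 (SE, n = 3 each), a 5.89-fold lower mean, with a limma adjusted p of 0.0028. Probe set 1456006_at read 1.93, 1.94 and 1.96 against 0.39, 0.46 and 0.66, a change of -1.44 ± 0.28 (limma adjusted p 0.0027). Changes of 1426334_a_at (-2.31 ± 0.55) and 1435448_at (-1.62 ± 0.46) were called as well, and that of the brightest, 1456005_a_at (-1.70 ± 0.57, limma adjusted p 0.062), was not. The call of 1426334_a_at was lost without replicate 2 or 3 of 2.8 mM, and that of 1435448_at without any 1 of the 6 arrays. All 6 arrays of the 2 doses are at the high spike level.
Against 0 mM the picture depended on the probe set. At 0 mM the brightest read 2.08, 3.97, 1.09 and 3.55, so replicates 2 and 4 were again above replicates 1 and 3, and the spread there (SD 1.33) was larger than most dose differences. Probe set 1426334_a_at read 1.06, 1.42, -0.03 and 1.53 at 0 mM, 3.01, 2.76 and 2.67 at 2.1 mM and 1.72, 3.80 and 3.57 at 2.8 mM. Both doses lay above every 0 mM array, with rises of 1.82 ± 0.51 and 2.04 ± 0.51 (limma adjusted p 0.023 and 0.014), the first lost without any array of 2.1 mM or replicate 3 of 0 mM, the second without replicate 2 or 3 of 2.8 mM. Probe set 1435448_at instead read 2.08, 3.75, 1.37 and 3.64 at 0 mM and 0.74, 0.97 and 1.20 at 3.5 mM, and its change of -1.74 ± 0.43 was called (limma adjusted p 0.014; 0.056 without replicate 1 of 3.5 mM). The difference between these probe sets on the same array, 1426334_a_at minus 1435448_at, was -1.71 ± 0.61 (SD, n = 4) at 0 mM and 0.92 ± 0.09 (n = 3) at 2.1 mM, so the probe sets of this one gene changed unequally. With spike level as a term, the changes of 1426334_a_at at 2.1 and 2.8 mM were 1.24 and 1.46, with limma adjusted p of 0.53 and 0.38, and that of 1435448_at at 3.5 mM had a limma adjusted p of 0.064.

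Bid, which caspase-8 cleaves to link death receptors to mitochondria, was called in 0 of its 3 probe sets by the F test, and in none of the 13 comparisons. Its brightest probe set (1417045_at) read 4.13, 4.16, 4.75 and 4.16 at 0 mM and 5.03, 4.95 and 4.92 at 2.1 mM, a difference of 0.66 ± 0.29 with a limma adjusted p of 0.14. The arrays of 0.14, 0.7 and 2.1 mM lay above all at 0 mM, and those of 1.4 mM spread from 3.21 to 5.06. Bak1, an effector that forms pores in the outer membrane, was called at 1.4 mM through 1418991_at, which read 3.76, 3.10, 3.92 and 3.01 at 0 mM and 2.14, 2.54 and 3.08 at 1.4 mM. Replicate 3 of 1.4 mM lay within the 0 mM range, and the limma adjusted p of 0.048 for the change of -0.86 ± 0.26 passed 0.05 when any of 15 arrays was left out.

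Of the inhibitor of apoptosis genes, Xiap, whose product blocks caspases directly, was called by the F test in 5 of its 7 probe sets. Its brightest probe set (1437533_at) read 3.99, 3.49, 3.86 and 3.13 at 0 mM and 2.95, 2.53 and 2.47 at 3.5 mM. All 3 arrays of 3.5 mM lay below all 4 at 0 mM, and the change was -0.97 ± 0.23 (SE, n = 3 against 4; limma adjusted p 0.012). Without replicate 2 or 3 of 3.5 mM its limma adjusted p was 0.051 and 0.059. Probe set 1456088_at read 1.17, 0.63, 0.79 and 0.53 at 0 mM, 2.31, 2.09 and 1.89 at 2.1 mM and 0.96, 0.54 and 0.37 at 3.5 mM. It was higher than at 0 mM on every array of 1.4, 2.1 and 2.8 mM, and at 2.1 mM the rise was 1.32 ± 0.30, a 2.49-fold higher mean (limma adjusted p 0.0071). At 2.1 mM 4 of 7 probe sets rose (3 of these, 1450231_a_at, 1421394_a_at and 1426636_a_at, had 0 mM means below the array median), all 7 means were above those of 0 mM (by 0.15 to 1.54), and from 2.8 to 3.5 mM all 7 means were lower at the higher dose, with 1 called and lost on leaving out any of 6 arrays. With spike level as a term the rise of 1456088_at at 2.1 mM was 0.17 (limma adjusted p 0.86), and the change of 1437533_at at 3.5 mM was -1.52 (limma adjusted p 0.0075). The rises of the other 3 called probe sets at 2.1 mM were lost with that term too (limma adjusted p 0.57 to 0.92). That of 1421394_a_at was also lost without replicate 1 or 2 of 2.1 mM, and that of 1450231_a_at without replicate 1.

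Birc3, which encodes cIAP2, was lowest at 2.8 mM by the brighter of its 2 probe sets. The dimmer one (1425223_at) lay below the array median, was not called by the F test (limma adjusted p 0.89), and was called in no comparison. The brighter one (1421392_a_at) read 3.33, 4.24, 3.91 and 4.33 at 0 mM, 4.55, 4.67 and 4.66 at 0.14 mM, 2.80, 3.28 and 3.15 at 2.8 mM, and 3.41, 4.51 and 4.44 at 3.5 mM. All arrays at 2.8 mM lay below, and all at 0.14 mM above, those of 0 mM. The fall at 2.8 mM was 0.88 ± 0.25 (limma adjusted p 0.024, and 0.051 to 0.087 without any array of 2.8 mM or replicate 2 or 4 of 0 mM) and the step from 2.8 to 3.5 mM was 1.04 ± 0.26 upward (limma adjusted p 0.013), the single called step upward among these probe sets. Without replicate 2 or 3 of 3.5 mM the upward step had a limma adjusted p of 0.078 and 0.083, and with the 2 doses fitted alone 0.10. With spike level as a term the fall at 2.8 mM had a limma adjusted p of 0.28. That fall was also not called with each array scaled to a common spread or with the 2 doses fitted alone. Birc2, its neighbour, which encodes cIAP1, was called in 0 comparisons by its 1 probe set. It read -0.97 on replicate 1 of 0 mM and 1.67 to 2.80 on the other 3, against 1.09 to 2.69 over all other doses, and its F test had a limma adjusted p of 0.73.

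Cflar, which encodes the caspase-8 inhibitor c-FLIP, showed the largest fall of the 10 genes between neighbouring doses by brightest probe set. Probe set 1424996_at read 2.48, 3.37, 2.34 and 3.14 at 0 mM, 3.89, 3.73 and 3.61 at 2.1 mM, 2.88, 3.87 and 3.70 at 2.8 mM, and 1.20, 1.48 and 1.49 at 3.5 mM. All 3 arrays at 3.5 mM were lower than each of the 22 others. The change from 2.8 to 3.5 mM was -2.09 ± 0.33 (SE, n = 3 each), a 4.26-fold lower mean, with a limma adjusted p of 0.00053, and against 0 mM it was -1.44 ± 0.31, a 2.72-fold lower mean (limma adjusted p 0.0055). Both calls held in each of the alternative settings run and without any 1 array, and with spike level as a term the change against 0 mM was -2.33 (limma adjusted p 0.0018).
Below 3.5 mM the same probe set passed the test against 0 mM at no dose. In order, its dose means were 3.74 at 2.1 mM, 3.48 at 2.8, 3.46 at 0.35, 3.41 at 1.4, 2.86 at 0.7, 2.84 at 0, 2.38 at 0.14 and 1.39 at 3.5 mM. The first 4 did not differ beyond the pooled SD of 0.44, nor did 0.7 and 0 mM. Its rise at 2.1 mM, of 0.91 ± 0.31, had a limma adjusted p of 0.060, while that of 1425686_at, 1.25 ± 0.40, was called (limma adjusted p 0.043), and lost on leaving out any of 10 arrays. Replicate 3 of 0.7 mM, at 3.78, stood well above replicates 1 and 2, at 2.45 and 2.34, and it is the array of that dose at the high spike level. With spike level as a term the change of 1425686_at at 2.1 mM turned to -0.07 (limma adjusted p 0.97).

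The step from 2.8 to 3.5 mM was the only one with calls, and all 6 of its arrays have a high spike level. Of the 40 probe sets 29 had a lower mean at 3.5 mM, and 16 had no overlap between the 2 doses, against 25.7% of all probe sets. The 9 that fell were 1 of Mcl1, 4 of Bcl2l11, 1 of Xiap and 3 of Cflar, so protective genes and a killer gene were among them. The median change of the 40 was -0.24, against 0.04 over all probe sets, whereas the median of the 10 genes by brightest probe set was 0.09, against 0.07 over all genes. Fitted on the high spike arrays alone, the step called 10, which include 9 of these and not Mcl1 1448503_at (limma adjusted p 0.055). Without replicate 2 or 3 of 2.8 mM, or replicate 2 of 3.5 mM, limma called 5, and without replicate 3 of 3.5 mM it called 6. From 2.1 to 2.8 mM 21 of 40 probe sets, several of them of the same gene, had no overlap between the doses, against 18.3% of all probe sets. At that step limma called 0 with the pooled spread and 2 with these 2 doses fitted alone.

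**Figure D4:**
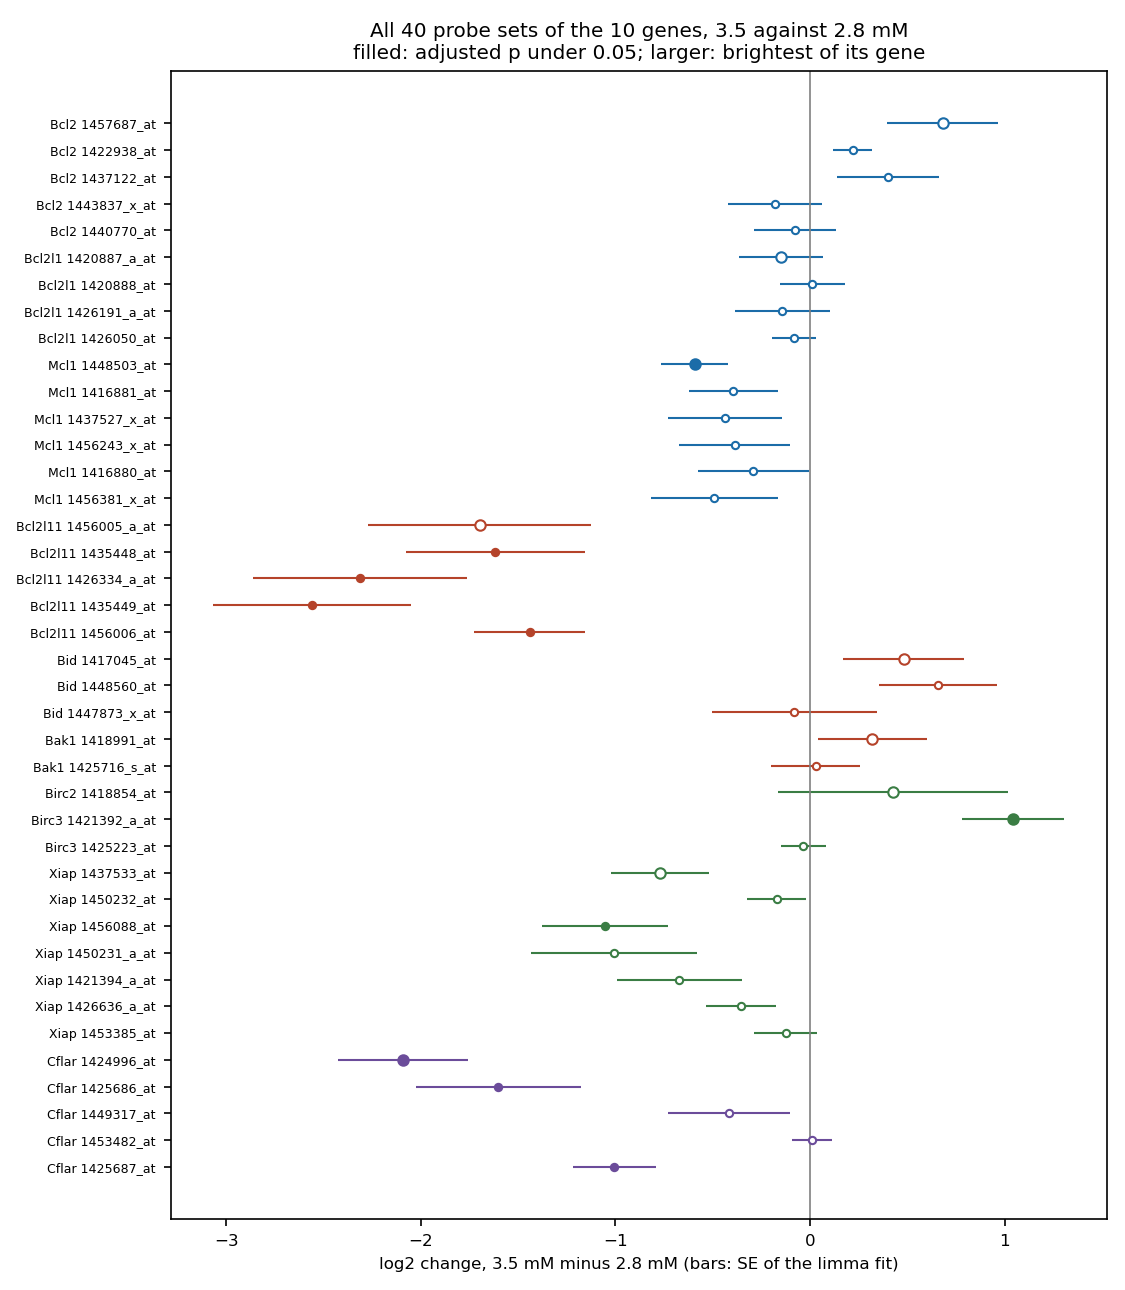
Log2 change from 2.8 to 3.5 mM with its SE for all 40 probe sets, filled where the limma adjusted p was under 0.05, larger for the brightest of a gene and coloured by role (blue protective, red killer, green inhibitor of apoptosis, purple Cflar). All Bcl2l11, Mcl1 and Xiap probe sets lie left of 0, and Birc3 1421392_a_at is the single filled point to the right.

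The rest of the pathway was described by 6 lists of 54 genes, 44 of them measured. The F test called 15 of the 44 by brightest probe set, against 28% of all genes. Of 7 other BH3-only genes 2 were called, Bad and Pmaip1, and Pmaip1 (Noxa, which binds Mcl-1) fell by 2.25 ± 0.55 at 0.35 against 0 mM, with a limma adjusted p of 0.022. Pmaip1 had the same division at 0 mM as Mcl1, at 3.87, 5.50, 2.81 and 5.33, and read 2.31, 1.52 and 2.56 at 0.35 mM. Its call was lost without replicate 2 or 4 of 0 mM or replicate 2 of 0.35 mM. Bad was called in none of the 13 comparisons between doses. Bbc3, a further BH3-only gene, was not called by the F test (limma adjusted p 0.089). It was lower than at 0 mM by 1.42 ± 0.42 at 2.8 mM and by 1.61 ± 0.42 at 3.5 mM (limma adjusted p 0.033 and 0.020). Of 10 other inhibitor of apoptosis genes and antagonists 2 were called, Birc6, a giant ubiquitin ligase, and Birc5 (survivin), which also serves mitosis. Birc6 fell by 1.08 ± 0.19 at 3.5 against 0 mM (limma adjusted p 0.0012), and Birc5 fell by 1.54 ± 0.40 at 2.1 against 0 mM (limma adjusted p 0.015), a call lost without replicate 3 of 2.1 mM and with spike level as a term. Birc5 rose by 1.39 ± 0.43 from 2.8 to 3.5 mM (limma adjusted p 0.039). That call was lost on the high spike arrays alone and without any of 5 of the 6 arrays of these doses. In the same list, Naip5 and Diablo were not called by the F test. Against 0 mM, Naip5 was lower by 0.86 ± 0.28 at 2.1 mM and by 1.09 ± 0.28 at 2.8 mM (limma adjusted p 0.043 and 0.014). Diablo, an antagonist, was higher by 0.49 ± 0.15 at 2.1 mM (limma adjusted p 0.032). Of 2 other protective relatives 0 were called by the F test. Among them, Bcl2l2 changed by -0.60 ± 0.19 at 2.8 against 0 mM (limma adjusted p 0.041). Bcl2a1 probe sets carry several symbols and were not counted. The brightest, with a mean of 4.75 over all arrays, was called by the F test (limma adjusted p 0.049). Its smallest limma adjusted p against 0 mM was 0.094, for -0.84 ± 0.30 at 1.4 mM. Of 5 other Bcl2 relatives 2 were called by the F test, Bcl2l15 and Bcl2l12. They moved oppositely from 2.8 to 3.5 mM (-0.82 ± 0.18 and 0.46 ± 0.14, limma adjusted p 0.0053 and 0.033). The Bcl2l12 call was lost without any of 4 of the 6 arrays, and both with the 2 doses fitted alone.

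Some caspases and death receptor adaptors rose at the step at which Cflar fell, in a comparison with 2.8 mM and not with 0 mM. Of 6 measured genes of caspases and the apoptosome 3 rose from 2.8 to 3.5 mM, and 0 fell, against 8.81% of all genes higher and 5.33% lower, namely the executioner Casp6 by 1.00 ± 0.18, Casp2 by 0.83 ± 0.16 and the initiator Casp9 by 0.40 ± 0.10 (limma adjusted p 0.0015, 0.0020 and 0.0089). The Casp9 call was lost with a trended and robust prior and with the 2 doses fitted alone (limma adjusted p up to 0.057), which leaves 2 of the 6. Casp6 read 1.43, 1.37 and 1.49 at 2.8 mM and 1.97, 2.76 and 2.56 at 3.5 mM, without overlap, and its mean at 0 mM was 1.95. Casp2 had means of 2.94, 2.15 and 2.98 at 0, 2.8 and 3.5 mM, and Casp9 had 2.76, 2.68 and 3.08. At 3.5 against 0 mM 1 of the 6 genes was called higher and 0 lower. Of 14 measured genes of death receptor signalling 2 rose at this step and 0 fell. One was Tradd, an adaptor of the TNF receptor, at 2.29, 1.97 and 1.91 at 2.8 mM and 3.22, 3.19 and 3.37 at 3.5 mM, a rise of 1.20 ± 0.17 (limma adjusted p 0.00014). The other, Fadd, the adaptor that recruits caspase-8 and c-FLIP, rose by 0.61 ± 0.19 (limma adjusted p 0.039) and is named because it completes the count. Tradd had a mean of 2.86 at 0 mM and was not called at 3.5 against 0 mM.
Against 0 mM, the counts for the same 14 genes follow, with the shares of all probe sets called higher and lower in brackets. The counts are of genes and the shares of probe sets, so they are not like for like. From 2.8 to 3.5 mM, for example, 8.81% of all genes but 5.59% of all probe sets were called higher. At 0.35 mM 3 were higher and 0 lower (1.71% and 4.72%), and at 1.4 mM 0 higher and 1 lower (4.39% and 3.43%). At 2.1 mM 2 were higher and 0 lower (7.26% and 6.09%). At 2.8 mM 1 was higher and 3 lower (5.64% and 6.26%), and at 3.5 mM 1 higher and 0 lower (3.93% and 5.4%). Ripk3, a kinase of necroptosis, the caspase-independent death that caspase-8 and c-FLIP restrain, stood at 3.99 ± 0.21 (SD, n = 4) at 0 mM, 4.64 ± 0.07 at 2.8 mM and 4.63 ± 0.11 at 3.5 mM (n = 3 each), with rises of 0.65 ± 0.12 and 0.64 ± 0.12 (SE, limma adjusted p 0.0018 at both). Mlkl, the membrane effector of the same process, stood at 2.60 ± 0.04 at 0 mM, 4.48 ± 0.18 at 0.35 mM and 4.30 ± 0.14 at 2.1 mM, and the rises of 1.88 and 1.70 were called (limma adjusted p 0.011 and 0.0071). Tnf, the cytokine ligand, rose by 3.48 ± 0.75 at 0.35 mM and by 2.85 ± 0.75 at 2.1 mM (limma adjusted p 0.012 and 0.016), the doses at which Mlkl was called too. With spike level as a term the calls of Ripk3, and those of Mlkl and Tnf at 2.1 mM, were lost, and without replicate 2 of 0.35 mM those of Mlkl and Tnf at 0.35 mM were lost. The Tnf call at 2.1 mM was also lost without any array of that dose.

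**Figure D5:**
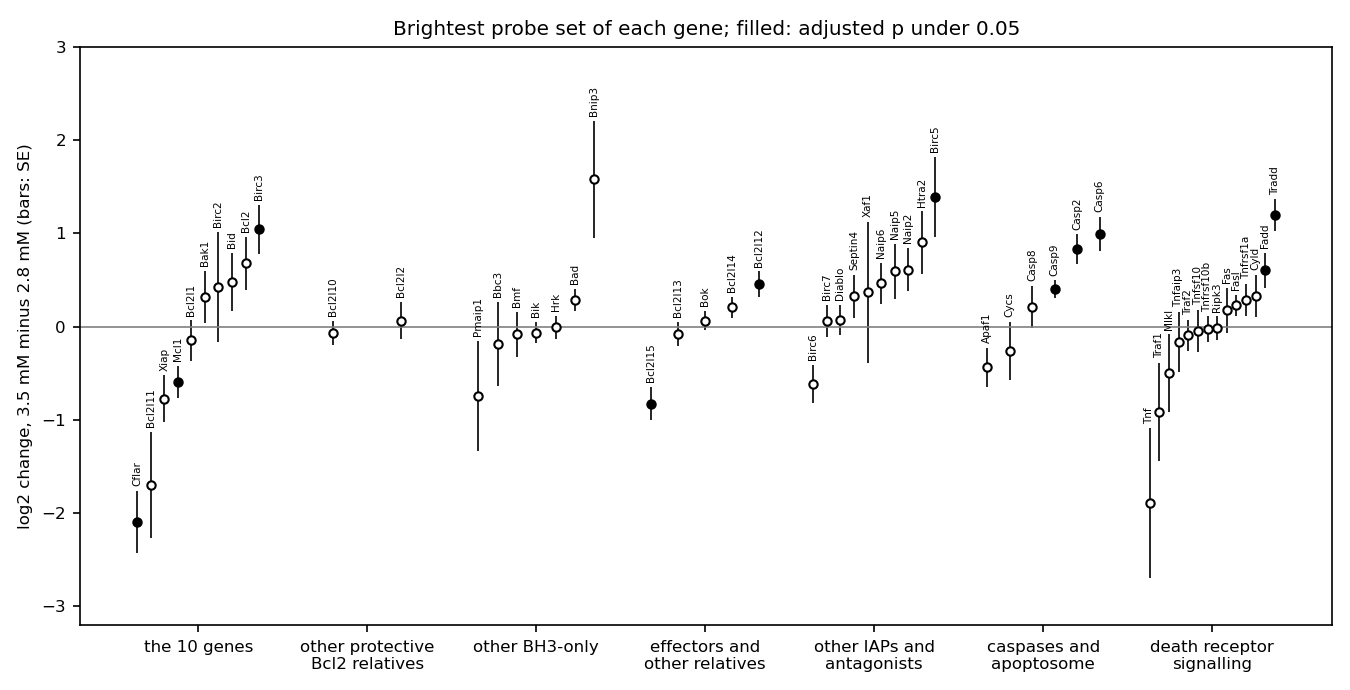
Log2 change from 2.8 to 3.5 mM with its SE for the brightest probe set of the 10 genes and of the 44 measured genes of 6 pathway lists, filled where the limma adjusted p was under 0.05. Filled points above 0 include Casp6, Casp2, Casp9, Tradd and Birc5, and those below 0 are Cflar, Mcl1 and Bcl2l15.

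Across the 25 arrays, the genes most like each F-test-called member were ranked by Pearson correlation over the 18183 other genes, as a description of arrays that share doses, processing and spike level. Cflar was most like Aff1 (r = 0.983), the dual-specificity phosphatase Dusp4 (0.965) and Tgif1 (0.953). Xiap was most like Skil (0.956), Zfhx4 (0.953) and Cttnbp2nl (0.942), and Mcl1 was most like the prostaglandin E receptor Ptger4 (0.912). Bcl2 was most like Foxn3 (0.901) and Birc3 most like Dipk1a (0.868). Among the 10 genes themselves, Mcl1 and Bcl2l11 correlated at 0.735, Bcl2l1 and Bak1 at 0.699, and Xiap and Cflar at 0.644, while Bcl2l11 and Bak1 correlated at -0.636. Probe sets of 1 gene did not always follow each other: r ranged from 0.363 to 0.961 over the 10 pairs of Bcl2l11 probe sets and from -0.33 to 0.874 over those of Bcl2.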

How the data were processed

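RNA of 25 RAW 264.7 cultures at 8 HOCl doses was measured on Affymetrix arrays. Signals were extracted with Array Assist, per the labels' design text, and summarised by RMA (version not given), per the submitters' processing notes; the deposited values are log2 signals with the median of each array at 0, the base inferred from their span. Arrays limit the precision by their number. Control probe sets (64) were set aside, leaving 45037, of which 34945 carry 1 symbol, 932 several and 9160 none in the platform annotation. A gene is its brightest single-symbol probe set. limma 3.58.1 (R 4.3.3) fitted 1 mean per dose over all arrays, with Benjamini-Hochberg adjustment over all probe sets and a threshold of 0.05. The tests were checked on simulated data. From each pathway list, at most 4 genes called by the F test were named, in order of p, besides the members and their most correlated genes. Bbc3, Bcl2l2, Naip5 and Diablo were named for calls between doses, though not every list gene with such a call was named. Adgre1 and Cd14 were named as markers that changed, and Bcl2a1 for a called probe set of several symbols. Members and lists were chosen with earlier results of these data known. Alternatives changed scaling, a filter on dim probe sets, the prior, the arrays fitted, array weights, a replicate block and spike level. The labels give 4 arrays at 0 mM and the design text states 3 per dose; all 4 were used. Same-numbered arrays were not treated as pairs.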

Additional observations from a re-analysis of the deposited data

Results flagged for a closer look

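In the group of 4 arrays at 0 mM, 53 sets of values were examined for an array far from the others, with Dixon's 95% critical value, and 2 stood out, where chance flags about 1 in 20. For Bid 1417045_at, replicate 3 was high at 4.749, against 4.131 to 4.163 on the other 3 arrays. For Xiap 1450232_at, replicate 1 was low at 1.183, against 1.746 to 1.795 on the others.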

How the results depend on the processing

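Of 39 member calls between doses, quantile normalization kept 38, scaling to a common spread 29, fitting 2 doses alone 21, the replicate block 26 and spike level as a term 17. Counts of the 40 probe sets called that moved by over 1.5 times are as follows. Quantile normalization gave 8 at 0.35 and 8 at 2.8 against 0 mM, and 3 from 0.14 to 0.35 mM. Scaling to a common spread gave 3, 2 and 8 at 0.35, 1.4 and 2.8 mM and 2 from 0.14 to 0.35 mM, and without dim probe sets that step gave 1. Fitting 2 doses alone gave 0, 3 and 1 at 0.35, 2.8 and 3.5 mM, 4 from 0.14 to 0.35 mM and 2 from 2.1 to 2.8 mM. Array weights, whose fit did not converge and put a weight of 95.6 on replicate 1 of 0.35 mM, gave 37 in the F test, 21, 29, 20, 14, 24, 16 and 15 from 0.14 to 3.5 mM against 0 mM, and 25, 20, 10 and 2 at the steps up to 0.35, 0.7, 1.4 and 2.8 mM. Gene-by-gene weights, chosen after seeing the data, gave 33, then 21, 22, 17, 14, 26, 16 and 15, and 16, 3, 7 and 17 at the steps up to 0.35, 0.7, 2.8 and 3.5 mM.
Replicate numbers did not pair the arrays: 19 of 84 same-number correlations of deviations passed 0.1 (median -0.0256), and 5 of 24 arrays correlated best with their own number. The replicate block gave 0, 2 and 3 at 0.35, 1.4 and 3.5 mM and 1 from 0.14 to 0.35 mM. Spike level as a term gave 0, 0 and 1 at 1.4, 2.1 and 2.8 mM, and turned Cflar 1425686_at at 2.1 mM to -0.07187. Low spike arrays alone gave 2 at 0.35 mM, 2 from 0.14 to 0.35 mM and 1 from 0.35 to 0.7 mM. Leaving out 1 array gave 14 to 23 in the F test, 0 to 8, 2 to 6, 4 to 11, 2 to 9 and 2 to 8 at 0.35, 1.4, 2.1, 2.8 and 3.5 mM, and 0 to 2, 0 to 1 and 5 to 13 at the steps up to 0.35, 2.8 and 3.5 mM. The causes were not tested.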
